A study of Homo sapiens with 18 samples.

Results

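The 6 libraries described here are those of unstimulated β-arrestin1/2 KO cells and unstimulated Gαs KO cells, 3 biological replicates of each, out of 18 libraries in the series. They were chosen by the sample labels alone, and the lines were compared directly, without a wildtype library. Both lines are derivatives of HEK293, a human embryonic kidney cell line, in which CRISPR–Cas9 had been used to disrupt either GNAS, which encodes Gαs, or ARRB1 and ARRB2, which encode β-arrestin1 and β-arrestin2. Cells of both lines carried a transfected plasmid for wildtype β2-adrenergic receptor (β2AR), were kept without serum overnight and received vehicle for 1 h at 48 h after transfection. The comparison gives the distance between the lines before agonist is added, from which their responses to isoproterenol start. Whether a KO line is 1 clone or several is not given in the sources used here, so that genotype and line cannot be told apart, and nothing in the labels says how the replicates of a line were separated, so that p-values measure the spread between these samples only.

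Gαs couples receptors such as β2AR to adenylyl cyclase, the enzyme that makes cyclic AMP (cAMP). Cyclic AMP releases the catalytic subunits of protein kinase A (PKA), which phosphorylate, among others, the transcription factor CREB, and CREB binds the cAMP response element (CRE) in the promoters of its target genes. Phosphodiesterases break cAMP down, and PKA inhibitor proteins hold the kinase in check. β-arrestins bind receptors that GPCR kinases (GRKs) have phosphorylated, uncouple them from G proteins and link them to clathrin and the AP2 adaptor for internalization.

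The 6 libraries held 18433424 to 25019834 expected counts each, with 93.557 to 93.765% of them assigned to genes. Replicates of a line correlated across genes at 0.971 to 0.972 in β-arrestin1/2 KO cells and at 0.977 to 0.979 in Gαs KO cells on the log2 scale. By this measure no library stood apart from its line. The chi-square per gene between replicates was 13.5 for β-arrestin1/2 KO libraries 1 and 2. It was 7.6 and 7.7 for the other pairs of that line and 3.9 to 4.3 in Gαs KO cells. The kidney line label was set against marker genes. The epithelial keratins KRT8 and KRT18 had mean normalized counts of 13250 and 4667 in the β-arrestin1/2 KO line, compared with 17450 and 6485 in the Gαs KO line, and the nephron progenitor factor gene SIX2 was measured in both lines. Of 14 blood and endothelial markers 6 passed the filter on low counts, and PTPRC, the common leukocyte antigen gene, had 0 counts in each of the 6 libraries. Genes that define differentiated kidney epithelium were at or near 0 as well, with at most 4 counts in any library for HNF4A and CDH16, and the neurofilament gene NEFL was measured at 3907 and 6723 normalized counts. In bulk samples such as these, fewer cells of a type and less RNA per cell cannot be told apart.

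The targeted genes differed between the lines for 2 of 3. GNAS (chr20:58839718-58911192 on GRCh38, plus strand) had 33000, 34070 and 31840 normalized counts in the β-arrestin1/2 KO libraries and 1357, 1265 and 1474 in the Gαs KO libraries, where a normalized count is the count scaled to the mean effective library size of the 6 libraries. The values did not overlap, and the log2 difference (β-arrestin1/2 KO minus Gαs KO throughout) was 4.59 (SE 0.060, adjusted p = 1.81e-11 by the quasi-likelihood test of edgeR). For ARRB2 the β-arrestin1/2 KO libraries gave 480.1, 439.8 and 373.5 normalized counts and the Gαs KO libraries 1596, 1478 and 1508, a log2 difference of -1.82 (SE 0.085, adjusted p = 1.52e-07, edgeR). ARRB1 had 871, 783.8 and 901.7 against 913.4, 1021 and 968.8, and its log2 difference of -0.19 (SE 0.071) did not pass the test (adjusted p = 0.0545, edgeR), although the libraries of the lines did not overlap. It was called in a fit of all 12 KO libraries. A count over the whole gene does not read the edited site, so that the ARRB1 level does not check the label.

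**Figure D1:**
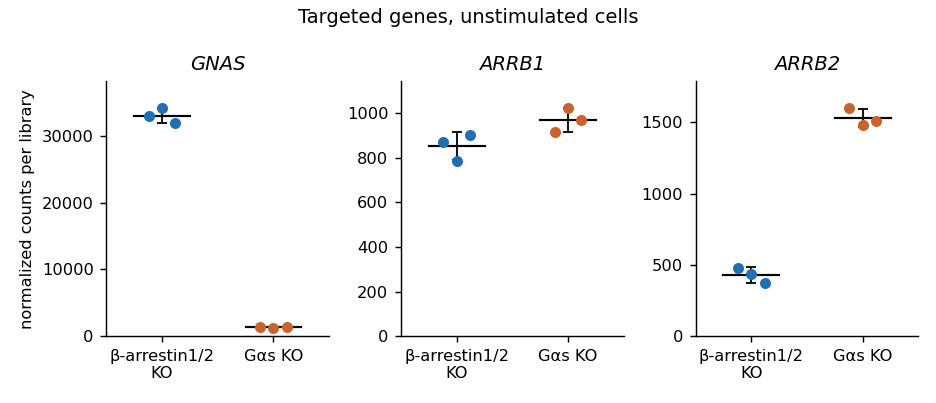
Normalized counts of GNAS, ARRB1 and ARRB2 in each unstimulated library (β-arrestin1/2 KO blue, Gαs KO orange), each panel with its own linear axis from 0. Points are libraries, and the horizontal line and bar give the mean and SD of 3 libraries. GNAS is near the foot of its panel in Gαs KO cells (1265 to 1474), ARRB2 is lower in all 3 β-arrestin1/2 KO libraries, and the ARRB1 values of the lines (783.8 to 901.7 and 913.4 to 1021) lie close together.

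Of 14901 genes tested, 7175 (48.2%) were called different between the unstimulated lines at an adjusted p under 0.05 in edgeR's quasi-likelihood test. The calls were split evenly, with 3592 genes higher in β-arrestin1/2 KO cells (24.1% of the genes tested) and 3583 lower (24.0%), and their median absolute log2 difference was 0.44. Differences of at least 1 on the log2 scale were less even, since 793 genes were higher (5.32%) and 478 lower (3.21%). The median log2 difference of all genes tested was 0.0028. The 6 libraries of the same lines kept with 1 μM isoproterenol for 1 h share no library with these, and 7981 of 14743 genes (54.1%) were called between the lines there. Of the 7108 genes called in unstimulated cells that were also tested with isoproterenol, 6803 (95.7%) differed in the same direction, 5570 (78.4%) were called in it and 45 were called in the other.

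**Figure D2:**
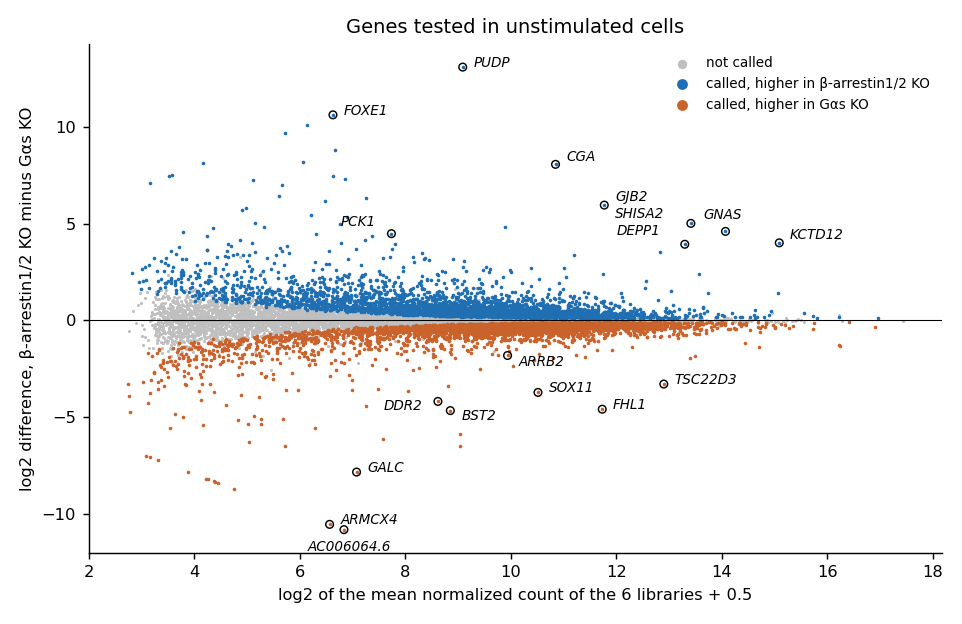
Log2 difference (β-arrestin1/2 KO minus Gαs KO) for the 14901 genes tested, against log2 of the mean normalized count of the 6 libraries plus 0.5. Blue points are genes called higher and orange points genes called lower in β-arrestin1/2 KO cells, grey points are not called, and circles mark named genes. GNAS, GJB2, SHISA2, KCTD12 and CGA stand far above the other genes of their level, and FHL1, TSC22D3 and SOX11 far below. For genes at or near 0 in a line, such as PUDP, the height plotted depends on the small count that the fit adds and is no measured fold.

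The 10 genes with the largest difference towards β-arrestin1/2 KO cells, among those with at least 500 mean normalized counts there and 10 counts in every library, were GJB2, SHISA2, PKP3, GNAS, KCTD12, DEPP1, EFNB2, EMP1, GPRC5A and CNKSR1. GJB2, which encodes the gap junction protein connexin 26, had 6734, 6786 and 7092 normalized counts in its 3 β-arrestin1/2 KO libraries against 110.3, 116.2 and 106.7 in the others. Its mean was 61.9 times as high, with a log2 difference of 5.95 (SE 0.054, adjusted p = 2.39e-12, edgeR). SHISA2, an inhibitor of WNT and FGF receptor maturation, was at 21130 ± 444 against 656.9 ± 53.9 normalized counts (SD, n = 3). KCTD12, an auxiliary subunit of GABA-B receptors, was at 65520 ± 503 against 4093 ± 94.1 (SD, n = 3), a 16.0-fold difference. The ephrin ligand gene EFNB2 was 11.4 times as high, and GJB2, SHISA2, KCTD12 and EFNB2 all lie on chromosome 13. The median log2 difference of the 254 genes tested on that chromosome was 0.03, with 31.5% higher and 18.9% lower. PKP3, which encodes the desmosomal plaque protein plakophilin 3, was 28.2 times as high, with 1834, 1690 and 1940 normalized counts against 63.73, 56.59 and 73.27. DEPP1 was at 18870 ± 619 against 1241 ± 46.9 (SD, n = 3). The membrane protein genes EMP1 and GPRC5A were 11.3 and 10.4 times as high. In the isoproterenol libraries all 10 were again called in the same direction, with log2 differences from 3.06 for CNKSR1 to 6.07 for GJB2.

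Towards Gαs KO cells the 10 largest differences under the same rule were those of BST2, FHL1, DDR2, SOX11, SLITRK5, TSC22D3, FLRT2, SLC16A7, SMTN and ARMCX2. BST2, which encodes tetherin, an interferon-inducible protein that holds budding virus at the cell surface, had 815.3, 959.9 and 887.4 normalized counts in the Gαs KO libraries but 42.29, 33.37 and 28.64 in the β-arrestin1/2 KO libraries. Its log2 difference was -4.67 (SE 0.13, adjusted p = 4.6e-09, edgeR). FHL1, a LIM domain protein of muscle, was at 269 ± 18.1 against 6530 ± 523 normalized counts (SD, n = 3), and TSC22D3, the glucocorticoid-induced leucine zipper protein, at 1403 ± 80.5 against 13860 ± 166 (SD, n = 3). The lines did not overlap for either gene, and both lie on the X chromosome, as does ARMCX2. SOX11, a transcription factor of neural progenitors, was 13.3 times as high in Gαs KO cells, DDR2, a receptor kinase for fibrillar collagen, 17.9 times, and the monocarboxylate transporter gene SLC16A7 5.46 times. The cell surface proteins SLITRK5 and FLRT2 differed by -3.39 and -2.51 on the log2 scale. SMTN, which encodes smoothelin of smooth muscle and lies on chromosome 22, differed by -2.38. With isoproterenol the 10 genes were called lower again, with log2 differences from -1.75 for ARMCX2 to -4.86 for BST2.

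For 23 protein-coding genes called higher, every Gαs KO library held at most 3 counts, and for 26 called lower the same held of the β-arrestin1/2 KO libraries. Folds for such genes are given as lower bounds against a floor of 3 counts in each library. PUDP, a pseudouridine 5′-phosphatase gene on the X chromosome, had 0 counts in each Gαs KO library and 1089, 1093 and 1077 normalized counts in the β-arrestin1/2 KO libraries, at least 372-fold higher. It was again at 0 in the Gαs KO libraries with isoproterenol. PARP12, a mono-ADP-ribosyltransferase gene, was at least 78.1-fold higher, ERVMER34-1, an endogenous retroviral envelope gene, at least 69.5-fold and FOXE1, a thyroid transcription factor gene, at least 67.3-fold. The other genes of this kind with the highest levels were NOVA2, SPATA16, ANXA8L1, FAM19A5, RGL3 and TMEM72, with bounds from 66.7-fold for NOVA2 to 23.4-fold for TMEM72. NOVA2, a neuronal splicing factor gene, was not called with isoproterenol, where it had 0, 167.8 and 0 normalized counts in the β-arrestin1/2 KO libraries and 2.883, 51.89 and 51.24 in the Gαs KO libraries. Its mean in β-arrestin1/2 KO cells there rested on 1 library. In the other direction GALC, the lysosomal galactosylceramidase gene, had 251.9, 265.8 and 284 normalized counts in the Gαs KO libraries and 3.429, 0 and 0 in those of β-arrestin1/2 KO cells, where it was at least 86.6-fold lower. ARMCX4 was at least 60.9-fold lower, the butyrylcholinesterase gene BCHE at least 33.3-fold, and IFI16, a DNA sensor gene, at least 20.6-fold. ZNF804A, PCDHA3, SCG2, TCF15 and NRK had bounds from 21.8-fold to 13.1-fold. AC006064.6 also met the rule, but its Gαs KO libraries spread over 19.22, 443.6 and 218.9 normalized counts and its mean there with isoproterenol was 33.

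Genes of the cAMP pathway differed member by member, and 24.1% of all genes tested were higher and 24.0% lower. Of 5 GRK genes tested, 1 was lower in β-arrestin1/2 KO cells and none was higher. This was GRK2, at 3146, 3026 and 3163 normalized counts against 3477, 3622 and 3421, a log2 difference of -0.17. GRK3, GRK4, GRK5 and GRK6 had log2 differences between -0.24 and -0.02 that did not pass the test, and ADRB1 had 1.29 with overlapping libraries (adjusted p = 0.0834, edgeR). Among 10 other Gα genes 3 were higher and 2 lower. GNAL, the olfactory relative of Gαs that also activates adenylyl cyclase, was higher by 0.46 on the log2 scale, close to the median of 0.44 over the genes of its chromosome, 18, at 1005, 1085 and 932.6 against 705, 749.8 and 749.9 normalized counts. GNA12, which acts on RhoGEFs, was higher by 0.32 and GNAO1 by 0.96, whereas GNAI2, which inhibits adenylyl cyclase, was lower, at -0.22, and so was GNA11, at -0.19. Of 15 Gβ and Gγ genes, GNG4 and GNG7 (13.3%) were higher and GNB3, GNB4, GNG12, GNG13 and GNGT1 (33.3%) lower. GNG12 had 2336, 2376 and 2346 normalized counts against 2880, 3012 and 3031, a log2 difference of -0.34.

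Among adenylyl cyclases and PKA regulators the largest differences were those of PKIA, ADCY1 and ADCY5. ADCY1, a calmodulin-stimulated cyclase, had 2413, 2238 and 2136 normalized counts against 1286, 1305 and 1314, a log2 difference of 0.80 (SE 0.051, adjusted p = 1.27e-06, edgeR). ADCY5 was higher by 0.77 and ADCY9 by 0.10, and ADCY6 was lower, at -0.15. Thus 4 of 6 tested cyclases were called, beside 48.2% of all genes tested, but DESeq2 did not call ADCY6 and ADCY9. PKIA, the gene of a PKA inhibitor, had 197.8, 248.2 and 224.6 normalized counts against 699, 681.1 and 690.2, a log2 difference of -1.62 (SE 0.089, adjusted p = 4.65e-07, edgeR). The other inhibitor genes PKIB and PKIG went the other way, by 0.67 and 0.47, PKIG lying on chromosome 20, where the median over all genes was 0.42, and the regulatory subunit gene PRKAR1A was higher by 0.23. PRKACB, PRKAR1B and PRKAR2A had log2 differences of -0.06, 0.19 and 0.11 that did not pass the test. The catalytic subunit gene PRKACA had 0 counts in every library of both lines, and no counts were assigned to PRKAR2B or PRKACG. These genes could not be compared, and the reason for the missing counts was not tested. Among 15 phosphodiesterases, PDE4D, PDE8A, PDE8B and PDE10A were higher by 0.37 to 0.78, and the low-level genes PDE2A and PDE3A were lower, at -1.37 and -1.68. PDE3A had 8.002, 17.97 and 26.35 normalized counts against 63.73, 47.49 and 57.89. Of the CREB group, CREM, CRTC1, CRTC3, ATF1 and the cAMP sensor RAPGEF3 (EPAC1) were lower and CREBBP was higher by 0.38, with CREB1 itself at 0.06 and not called. RAPGEF3 had a log2 difference of -1.10, with 51.44, 49.63 and 51.56 normalized counts against 115.3, 100 and 112.2.

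Genes known to be induced by cAMP were mostly higher in β-arrestin1/2 KO cells. Of 30 tested members of a list of such genes, 19 (63.3%, beside 24.1% of all genes tested) were higher, 4 lower and 7 not called, with a median log2 difference of 0.63 against 0.0028 over all genes tested. CGA, which encodes the common α subunit of glycoprotein hormones, had 3139, 3557 and 4297 normalized counts in the β-arrestin1/2 KO libraries compared with 18.21, 8.084 and 14.47 in the Gαs KO libraries. Its mean was 269.7 times as high, a log2 difference of 8.06 (SE 0.19, adjusted p = 1.98e-09, edgeR). PCK1, the gluconeogenic enzyme phosphoenolpyruvate carboxykinase, had 379.5, 383.4 and 457.1 against 17.2, 19.2 and 18.09 normalized counts, a log2 difference of 4.47 (SE 0.15, adjusted p = 2.07e-08, edgeR). PCSK1, a prohormone convertase gene, had 50.3, 41.07 and 73.32 against 3.035, 3.031 and 9.046, a log2 difference of 3.38 (SE 0.47). FOS, an immediate early gene, had 169.2, 250.7 and 278.4 against 55.63, 61.64 and 33.47, a log2 difference of 2.22 (SE 0.26, adjusted p = 6.72e-05, edgeR). For these 4 genes every β-arrestin1/2 KO library was above every Gαs KO library.

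The other members with a difference of at least 1 on the log2 scale were ID1, the proenkephalin gene PENK, FOSB and the orphan nuclear receptor gene NR4A1, with log2 differences of 2.14, 1.91, 1.68 and 1.40. NR4A1 had 968.2, 840.3 and 1043 normalized counts against 362.1, 348.6 and 370.9. Smaller differences, between 0.37 and 0.78, were measured for VGF, JUNB, SGK1, DUSP1, BTG2, NR4A2, SIK1, KLF4, EGR1, INSIG1 and PDE4D. The 4 members that were lower were CREM, a repressor of CRE-dependent transcription in its inducible form, ATF3, PER1 and FOSL2, at -0.54, -0.29, -0.26 and -0.25 on the log2 scale. NR4A3, PDE4B, PPARGC1A, RGS2, NFIL3, GEM and BDNF were not called, with log2 differences from -0.03 to 0.67. PCK1 and ID1 lie on chromosome 20, where genes were higher in β-arrestin1/2 KO cells in general. Without list members on chromosomes 18, 20, 22 and X 17 of 28 (60.7%) were higher and 4 (14.3%) lower. Of all genes outside these chromosomes 22.9% were higher and 22.6% lower. Members on other chromosomes stayed in, whether or not the genes near them differed in the same direction. In the isoproterenol libraries 27 members were called higher and none lower, beside 4030 higher and 3951 lower of 14743 genes tested there. PCK1 then had mean normalized counts of 11150 against 16.73 and FOS 2492 against 63.99, whereas CGA stood at 7091 against 14.44.

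**Figure D3:**
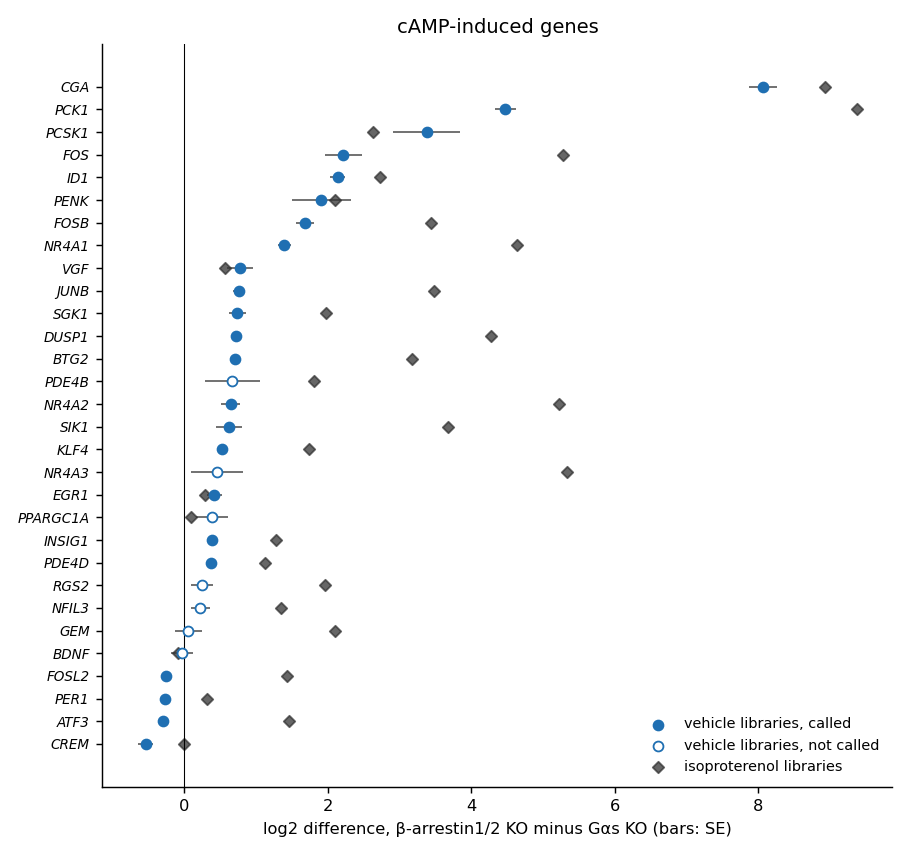
Log2 difference (β-arrestin1/2 KO minus Gαs KO) for the 30 tested cAMP-induced genes, ordered by their value in the vehicle libraries. Filled circles were called and open circles not called in the vehicle libraries, bars are standard errors, and diamonds are the values in the isoproterenol libraries. CGA and PCK1 lie farthest to the right in both, and for FOS, NR4A1, NR4A2 and DUSP1 the diamond lies far to the right of the circle.

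The full CRE palindrome, TGACGTCA, was searched on both strands in promoter windows of 300 bases, 250 before and 50 after the RefSeq transcription start (GRCh38.p14). It reads the same on both strands, and 1.85% of the 35116 windows held it. Of the 26 tested cAMP-induced genes with a window, 5 held it, namely CGA, PCSK1, VGF, DUSP1 and CREM. The windows of the 4 that were higher in β-arrestin1/2 KO cells are shown 5′ to 3′ with the palindrome in capitals.

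CGA, chr6:87095057-87095356, minus strand: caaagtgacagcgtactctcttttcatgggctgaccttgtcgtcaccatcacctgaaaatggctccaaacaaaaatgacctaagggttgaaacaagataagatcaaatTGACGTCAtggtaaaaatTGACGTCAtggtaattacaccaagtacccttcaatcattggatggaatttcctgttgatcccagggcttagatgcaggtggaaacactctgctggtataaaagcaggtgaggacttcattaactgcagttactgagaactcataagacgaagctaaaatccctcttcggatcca
PCSK1, chr5:96433199-96433498, minus strand: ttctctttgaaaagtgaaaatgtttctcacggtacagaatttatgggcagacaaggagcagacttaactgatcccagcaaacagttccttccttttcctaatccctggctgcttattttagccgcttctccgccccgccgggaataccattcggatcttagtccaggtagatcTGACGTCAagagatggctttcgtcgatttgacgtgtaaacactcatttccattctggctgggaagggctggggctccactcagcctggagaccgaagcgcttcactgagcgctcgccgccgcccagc
VGF, chr7:101165520-101165819, minus strand: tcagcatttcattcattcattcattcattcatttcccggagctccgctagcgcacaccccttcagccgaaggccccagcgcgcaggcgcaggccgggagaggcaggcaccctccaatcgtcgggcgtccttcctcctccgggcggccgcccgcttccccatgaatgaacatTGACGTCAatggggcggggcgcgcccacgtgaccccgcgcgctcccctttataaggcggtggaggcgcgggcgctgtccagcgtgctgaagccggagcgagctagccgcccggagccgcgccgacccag
DUSP1, chr5:172771146-172771445, minus strand: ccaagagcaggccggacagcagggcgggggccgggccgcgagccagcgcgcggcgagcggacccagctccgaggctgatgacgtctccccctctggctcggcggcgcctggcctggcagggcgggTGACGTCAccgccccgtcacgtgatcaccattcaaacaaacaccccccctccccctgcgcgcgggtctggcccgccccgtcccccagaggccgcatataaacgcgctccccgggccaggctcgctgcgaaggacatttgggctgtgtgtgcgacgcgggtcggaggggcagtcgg

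CGA is the only one of these 4 with 2 copies, at -142 to -135 and -124 to -117 from the start, with 10 bases between them, and only 21 windows in all held at least 2. The single copies lie at -77 to -70 in PCSK1, -79 to -72 in VGF and -125 to -118 in DUSP1. CREM, which was lower, holds the palindrome in 2 overlapping windows. Among all tested genes with a window, 394 held the palindrome in at least 1, and 31.7% of these were higher and 23.6% lower in β-arrestin1/2 KO cells, compared with 24.4% and 25.5% of the 10624 others. Their median log2 differences were 0.035 and -0.0037. A match in the window describes the sequence and is no measured binding site.

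Of 23 ERK targets tested, 7 (30.4%) were higher and 5 (21.7%) lower, near the 24.1% and 24.0% of all genes, with a median log2 difference of 0.0032. MYC had 1755, 2027 and 1865 normalized counts against 3812, 3912 and 3768, a log2 difference of -1.02 (SE 0.052, adjusted p = 2.88e-07, edgeR), and the cyclin gene CCND1 was lower too, at -0.36. The ETS factor gene ETV1 stood at -1.71 and the phosphatase gene DUSP2 at -1.05, while the phosphatase gene DUSP5 stood at 1.36, with 221.8, 234.5 and 271.5 normalized counts against 119.4, 84.88 and 79.6. The sprouty genes SPRY1 and SPRY2, inhibitors of the pathway, differed in opposite directions, by -0.95 and 0.59.

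Targets of the tumor suppressor p53 were higher in β-arrestin1/2 KO cells in 16 of 20 cases (80.0%, beside 24.1% of all genes tested), with 1 lower (5.0%, beside 24.0%) and a median log2 difference of 0.57. The death receptor gene TNFRSF10B had 3194, 3040 and 3094 normalized counts against 1286, 1302 and 1360, a log2 difference of 1.24 (SE 0.042, adjusted p = 2.01e-08, edgeR). SPATA18, which acts in mitochondrial quality control, had 402.4, 472.4 and 340.3 against 130.5, 134.4 and 146.5, a log2 difference of 1.56. TP53I3 and TIGAR, a regulator of glycolysis, were higher by 1.39 and 1.06, and MDM2, the ubiquitin ligase of p53, by 0.49. CDKN1A, the gene of the cell cycle inhibitor p21, was the lower member, at 2389, 2449 and 2593 against 2965, 3008 and 2945 normalized counts and a log2 difference of -0.26. None of the 20 lies on chromosomes 18, 20, 22 or X. With isoproterenol 14 were higher and 2 lower, with a median of 0.63, beside 4030 and 3951 of 14743 genes tested there.

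Of 39 WNT pathway genes 24 (61.5%, beside 24.1% of all genes tested) were higher and 7 (17.9%, beside 24.0%) lower, with a median log2 difference of 0.45. The receptor gene FZD10 was at 594.8 ± 11.03 against 64.89 ± 27.8 normalized counts (SD, n = 3) and the ligand gene WNT3A at 130.2 ± 20.6 against 21.59 ± 3.57 (SD, n = 3), with log2 differences of 3.19 and 2.58. WNT3 and the secreted inhibitor gene SFRP5 followed at 2.08 and 1.94. The feedback ligases RNF43 and ZNRF3, which remove Frizzled receptors from the membrane, and the stem cell receptor LGR5 were lower, at -0.87, -1.02 and -1.26, and ZNRF3 lies on chromosome 22. HOX genes, which set position along the body axis, were higher in 15 of 36 cases (41.7%, beside 24.1% of all genes) and lower in 1 (HOXB4, -0.60), with a median of 0.28. Of the HOXA cluster, log2 differences were 1.10 for HOXA13 and 0.83 for HOXA7, and HOXA2 was at 58.67 against 18.09 mean normalized counts. This cluster lies on chromosome 7 in a block of 25 neighbouring tested genes, HOXA genes among them, with a median of 0.51. In that block 18 genes were higher and none lower. In the hedgehog pathway 5 of 13 genes (38.5%, beside 24.0% of all genes) were lower and HHIP was higher. PTCH1, the hedgehog receptor, was at 2042 against 3963 mean normalized counts, a log2 difference of -0.96. Ephrins and Eph receptors divided into 8 higher and 8 lower of 20 (beside 24.1% and 24.0% of all genes), from EFNB2 at 3.51 to EPHA6, at 1.426 against 19.14 mean normalized counts. Of 14 RGS genes, which speed GTP hydrolysis by Gα subunits, 5 (35.7%) were higher and 3 (21.4%) lower, shares beside 24.1% and 24.0% of all genes, led by RGS7 at 1.47 and, on chromosome 20, RGS19 at 1.35.

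Adhesion and matrix genes differed in both directions. Of 37 collagen, laminin and related genes 16 were higher and 10 lower (median -0.01). Of 25 cadherin and integrin genes 10 were higher and 5 lower (median 0.11). Over all genes tested 24.1% were higher and 24.0% lower, so that the lower shares of both lists were near that of all genes. Fibronectin (FN1) was at 4091 ± 307 against 1556 ± 46.4 normalized counts (SD, n = 3). COL6A2 and, on chromosome 20, COL9A3 were higher by 1.93 and 2.10 on the log2 scale. COL3A1 was lower, at 28.3 ± 4.50 against 328.4 ± 11.8 (SD, n = 3). The epithelial cadherin CDH1 was at 247.2 ± 4.72 in β-arrestin1/2 KO cells against 19.01 ± 10.4 in Gαs KO cells (SD, n = 3), a log2 difference of 3.67, while the intermediate filament gene VIM was at 13800 ± 818 against 30710 ± 429 (SD, n = 3), a log2 difference of -1.15. ZEB1 and ZEB2, repressors of CDH1, were also lower, at -1.61 and -1.04, but SNAI1, another repressor of CDH1, which lies on chromosome 20, was higher by 2.01. Of the marker lists, 16 kidney and epithelial genes had 7 higher and 4 lower, and 17 neuronal genes 3 higher and 6 lower. Among 17 mesenchymal genes 7 were higher and 5 lower, and of 6 blood and endothelial genes 1 was higher. These counts stand beside 24.1% higher and 24.0% lower of all genes tested. The kidney progenitor gene EYA1 stood at -1.54, SIX2 at 0.92 and WT1 at 0.90, and MAP2 and NCAM1 of the neuronal list at -1.54 and -0.80. Whether these markers have a part in the other differences was not tested.

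Most called genes of the receptor internalization machinery and of a glycolysis list were lower in β-arrestin1/2 KO cells. Of 16 clathrin, AP2 and dynamin genes 11 (68.8%, beside 24.0% of all genes tested) were lower and 1 was higher, with a median log2 difference of -0.16. AP2B1, the adaptor subunit to which β-arrestins bind, was at 4507 against 6576 mean normalized counts (-0.54), CLTCL1 on chromosome 22 at 272.9 against 492.6 (-0.85), and the neuronal dynamin gene DNM1 was the higher member, by 0.89. When the fit took in all 18 libraries of the series, 3 of the 16 were lower, beside 1920 of 15530 genes tested. Among 5 α-arrestins, which are relatives of the β-arrestins, ARRDC3, ARRDC4 and TXNIP were lower, at -1.27, -0.42 and -0.72, and ARRDC1 was higher by 0.23. Of 27 tested members of the glycolysis and glucose transport list 17 (63.0%, beside 24.0% of all genes tested) were lower and 3 (11.1%, beside 24.1%) higher, with a median of -0.28. The list also holds VEGFA, BNIP3, NDRG1, EGLN3 and ANKRD37, which are neither glycolytic enzymes nor glucose transporters, and LDHA had no counts to test. PGK1, on the X chromosome, was at 4890 against 8563 mean normalized counts (-0.81), PFKM at -0.64, ENO1 at -0.38 and GAPDH at -0.29. The glucose transporter SLC2A3 went the other way, at 3560 ± 209 against 545.5 ± 13.5 (SD, n = 3), a log2 difference of 2.71, as did the lactate transporter SLC16A3 at 1.02. Mitochondrially encoded genes took 1.702 to 2.655% of the counts in β-arrestin1/2 KO libraries and 2.14 to 2.412% in Gαs KO libraries. Of 13 such genes 4 (30.8%, beside 24.0% of all genes tested) were lower, with a median log2 difference of -0.05. With isoproterenol 12 of the 13 were higher and none lower, with a median of 0.48, beside 4030 and 3951 of 14743 genes tested there.

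The calls were spread unevenly over the chromosomes. On chromosome 18, 146 of 213 tested genes (68.5%) were higher in β-arrestin1/2 KO cells, and on chromosome 20, 249 of 385 (64.7%) were higher, with median log2 differences of 0.44 and 0.42. On chromosome 22, 230 of 377 genes (61.0%) were lower with a median of -0.41, and on the X chromosome 268 of 535 (50.1%) were lower with a median of -0.30. Each β-arrestin1/2 KO library against the Gαs KO mean gave medians of the same sign on these 4 chromosomes, from 0.44 to 0.48 on chromosome 18 and from -0.42 to -0.39 on chromosome 22. The isoproterenol libraries had medians of 0.50, 0.37, -0.51 and -0.29 on chromosomes 18, 20, 22 and X. Outside these 4 chromosomes 22.9% of 13391 genes were higher and 22.6% lower. The shares differed among the remaining chromosomes too. On chromosome 16, 37.7% of the genes tested were higher and 11.4% lower. On chromosomes 10, 12 and 21, 35.6%, 34.1% and 41.0% were lower and 16.4%, 19.6% and 15.3% higher.

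**Figure D4:**
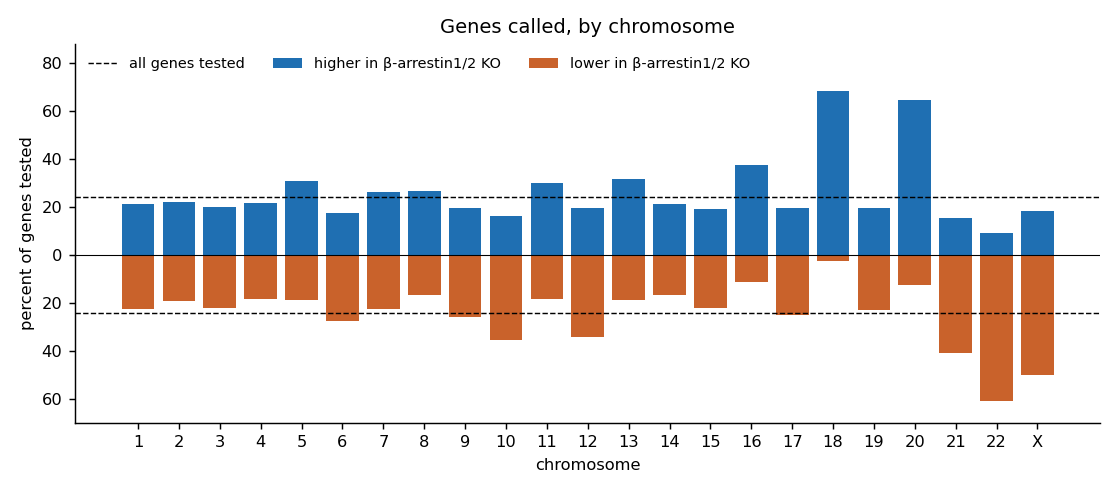
Percent of the genes tested on each chromosome that were called higher (blue, upward) or lower (orange, downward) in unstimulated β-arrestin1/2 KO cells than in Gαs KO cells. Dashed lines mark the shares over all genes tested, 24.1% and 24.0%. Chromosomes 18 and 20 rise to 68.5% and 64.7%, and chromosomes 22 and X reach down to 61.0% and 50.1%.

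Along the chromosomes the difference was not even either. In consecutive blocks of 25 tested genes the median log2 difference on chromosome 20 ran from -0.58 to 1.02, with 12 of 15 blocks above 0, and the highest blocks lay towards the end of the long arm. All 8 blocks of chromosome 18 were above 0 (0.16 to 0.55) and all 15 of chromosome 22 below 0 (-0.99 to -0.18). On the X chromosome 17 of 21 blocks were below 0, and the first block, which holds PUDP, had the highest median, 0.71. Blocks on other chromosomes were shifted as well. The block of chromosome 12 with RAPGEF3 and PFKM had a median of -0.46. The blocks with GNA12 on chromosome 7, CREBBP on chromosome 16 and DUSP1 on chromosome 5 had medians of 0.30, 0.26 and 0.27. Of all runs of 25 neighbouring genes, the 4 non-overlapping ones with the highest share called in 1 direction were all higher in β-arrestin1/2 KO cells, 3 of them on chromosome 20. In the run from PSMA7 to PPDPF (chr20:62136735-63522206) all 25 genes were higher, with a median of 0.94. The largest differences in this run were those of the vesicular nucleotide transporter gene SLC17A9, the nicotinic receptor gene CHRNA4 and GATA5, at 3.43, 3.39 and 3.35, with 45.72, 44.5 and 60.72 normalized counts of SLC17A9 against 8.092, 1.01 and 4.523. In the run from FAM210B to FAM217B (chr20:56358915-59948680) 24 of 25 were higher with a median of 1.08, and this run holds GNAS and PCK1, whose own log2 differences were 4.59 and 4.47, as well as the synaptonemal complex gene SYCP2 at 2.36. In the run from PTK6 to PCMTD2 (chr20:63528001-64287821) 23 were higher with a median of 0.86, among them the nociceptin receptor gene OPRL1, ZBTB46 and RGS19. The fourth run lies on the short arm of chromosome 8 from MFHAS1 to CNOT7 (chr8:8783354-17246878), where 23 were higher with a median of 0.98, SOX7, TRMT9B and RP1L1 having the largest differences. Genomic DNA of the lines was not analysed here.

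**Figure D5:**
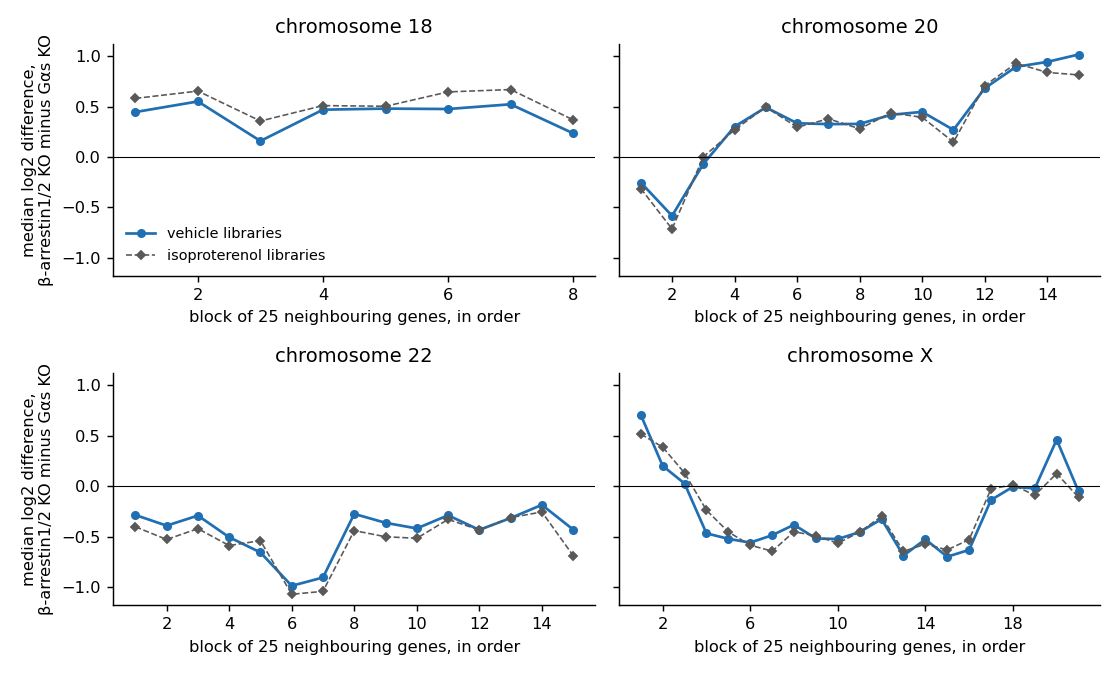
Median log2 difference (β-arrestin1/2 KO minus Gαs KO) in consecutive blocks of 25 tested genes along chromosomes 18, 20, 22 and X. Circles and solid lines are the vehicle libraries, diamonds and broken lines the isoproterenol libraries. The lines follow each other closely, chromosome 20 climbs to 1.02 at its end and chromosome 22 falls to -0.99 in its sixth block.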

How the data were processed

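Poly(A)-selected RNA was sequenced in 18 libraries as read pairs. The authors deposited expected counts per transcript (184844 transcripts) from Salmon 1.7.0 on GRCh38, not normalized for depth or length. The submitters' processing notes also name DESeq2. The transcript index, the annotation release and any use of strand are not given in the sources used here. Columns mapped to no sample numbered 0.

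Transcripts were joined by identifier to GENCODE release 29 (161838 transcripts, 34287 genes, 23920 with a count) and summed and rounded, and 14743 transcripts with a count matched none. Overlapping and near-identical genes may share reads. The 6 libraries were fitted with R 4.3.3 and edgeR 4.0.16 (TMM, filterByExpr, quasi-likelihood F test, Benjamini-Hochberg over all genes tested, called at an adjusted p under 0.05). An SE is the absolute log2 difference divided by the square root of F. Alternatives used DESeq2 1.42.0 and others named in the closing section. Tables and figures were made with Python 3.11.15, pandas 2.3.3 and matplotlib 3.10.9. The pipeline was tested on simulated data.

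Genes named are the targeted genes, the 10 largest per direction, the 10 highest per direction with at most 3 counts in every library of the other line, all receptor, G protein, cyclase, phosphodiesterase, PKA and CREB members, the 4 largest called of each gene list and the 4 densest runs of neighbours. The values of some list members are not reported here, and other members named were chosen after their values were seen. The comparison, its members and the gene lists were chosen with earlier results of these data known. Lists are described by counts and medians, without a set test.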

Additional observations from a re-analysis of the deposited data

Results flagged for a closer look

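Among the genes named here and the members of the cAMP and p53 lists, 9 had every β-arrestin1/2 KO library below every Gαs KO library with vehicle and above it with isoproterenol. For each the difference between these conditions was not tested. The share of all genes tested with this pattern is not given here, so that 9 cannot be read as many or few. The stress factor gene ATF3 had a log2 difference of -0.29 with vehicle and 1.45 with isoproterenol, FOSL2 of -0.25 and 1.43, and DUSP2 of -1.05 and 1.48. The clock gene PER1 changed from -0.26 to 0.32. Smaller changes of sign were those of PDE3B (-0.12 and 0.15), GNB4 (-0.17 and 0.14), MT-ND1 (-0.49 and 0.15), MT-ND2 (-0.38 and 0.24) and RPS26 (-0.50 and 0.17).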

How the results depend on the processing

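In unstimulated cells the count of 7175 genes stayed within 1.5 times under every alternative except 2. A fit that shared its spread with all 18 libraries called 4064 genes (2144 higher, 1920 lower), and a log2 difference of at least 1 left 1271, of which 62.4% were higher in place of 50.1%. With isoproterenol the same alternatives gave 4830 and 1468 in place of 7981. The cause was not tested. Leaving out 1 library gave 6163 to 7025 calls in unstimulated and 7005 to 7536 in isoproterenol libraries, and DESeq2's Wald test 6859 and 7508. Same-numbered libraries of the lines did not deviate together (correlations of 0.04, 0.06 and -0.01). The replicate block gave 6868 calls in unstimulated and 7777 in isoproterenol libraries, and with GC and length offsets 7164 and 7624. Of 259 named genes, none reversed under any of these fits, and 29 lost their call in the 18-library fit, 8 to 18 without 1 library, 7 with DESeq2 and 7 with the block. ADCY6, ADCY9 and DNM3 were among those that lost it in the most fits. ARRB1 was called in 5 fits. Without list members on chromosomes 18, 20, 22 and X, an alternative chosen after seeing the data, 16 of 26 members of the glycolysis list were lower and 23 of 37 WNT genes higher. Outside these chromosomes 22.6% of all genes were lower and 22.9% higher. Members in shifted regions of other chromosomes were not left out. Genes at a few counts, such as PDE3A and RP1L1, are limited by counting depth.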

Other observations

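Histone genes were picked out as a group after their values had been seen. Of 38 tested genes of the replication-dependent clusters, 2 of which (HIST2H2BC and HIST2H2BD, both lower) are annotated as pseudogenes, 29 (76.3%, beside 24.0% of all genes tested) were lower in unstimulated β-arrestin1/2 KO cells and none was higher, with a median log2 difference of -1.19. Their summed normalized counts were 8962, 8979 and 9484 in the β-arrestin1/2 KO libraries and 22481, 22005 and 22165 in the Gαs KO libraries. HIST1H1C, a linker histone gene, had 768.2, 613.6 and 640.4 normalized counts against 2222, 2346 and 2299, and HIST1H2BK had 1534, 1496 and 1568 against 3253, 3167 and 3065. With isoproterenol 32 of 37 were lower and none higher, beside 3951 lower and 4030 higher of 14743 genes tested there. A block of 25 neighbours on chromosome 6 that holds 12 of these genes had a median of -1.05, the lowest of all blocks. The libraries were selected for poly(A), most replication-dependent histone transcripts lack a poly(A) tail, and several of these genes are near-identical copies that share reads, so that these values read the polyadenylated part only. Cell cycle genes did not move with them in 1 direction, since 9 of 25 (36.0%) were higher and 4 (16.0%) lower. The shares over all genes tested were 24.1% and 24.0%. TYMS on chromosome 18 was higher by 0.74 and MCM5 on chromosome 22 stood at -0.39.

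Interferon-stimulated genes were divided, with 6 higher (26.1%) and 7 lower (30.4%) of 23, near the 24.1% and 24.0% of all genes tested. BST2 at -4.67 stood beside OAS3 and IFITM1 at 0.99 and 1.13. IFI44 had 0.285 against 12.38 and IFI44L 1.997 against 30.79 mean normalized counts. Clustered protocadherins, which give neurons their surface identity, had 11 lower (27.5%, beside 24.0% of all genes) and 3 higher (7.5%, beside 24.1%) of 40. Among them PCDHB11 was at 33.81 against 156.5 mean normalized counts. Of 10 imprinted genes outside the GNAS locus 5 were higher and 2 lower. IGF2, a fetal growth factor gene, was at 988.3 ± 142 against 116.7 ± 27.6 normalized counts (SD, n = 3), a log2 difference of 3.09 that was 3.14 with isoproterenol. Ribosomal protein genes had 14 higher and 28 lower of 82, nuclear oxidative phosphorylation genes 9 higher and 28 lower of 79, sterol and fatty acid synthesis genes 8 higher and 10 lower of 31, and ATF4 and stress targets 6 higher and 7 lower of 21, beside 24.1% higher and 24.0% lower of all genes. Of 228 zinc finger genes of chromosome 19, 59 (25.9%) were higher and 16 (7.02%) lower with a median log2 difference of 0.13. With isoproterenol 47 were higher and 49 lower with a median of 0.04, beside 4030 and 3951 of 14743 genes tested there.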
